A study of Mus musculus with 4 samples.

Results

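Single cell RNA-seq of mouse dorsal root ganglia was used to follow 9 secreted or injury-associated genes, *Serpina3n*, *Itih3*, *Kng2*, *Saa1*, *Saa2*, *Saa3*, *Lcn2*, *Plac8* and *Gcg*, out of 33456 genes listed in the files. They were chosen by their symbols because they had been picked for a rise after nerve crush in fibroblasts or glia of these same cells. Their change after injury in fibroblasts and glia is therefore given as a description, without a test. All 9 had a row in each of the 4 libraries. The libraries came from ganglia of C57BL/6 mice aged 8 to 12 weeks. The labels give L4 ganglia, whereas the study states L4 and L5. Of the libraries, 2 were from naïve animals (control) and 2 from animals killed 3 days after sciatic nerve crush (injury). Each library pooled cells of several mice, so the library and not the mouse or the cell was the replicate. The treatment text of the labels was the same for all 4 samples, and the groups were taken from the sample titles.

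Acute phase proteins are plasma proteins whose production by the liver rises sharply in inflammation, driven by interleukin-6 acting through STAT3 and by interleukin-1 and tumour necrosis factor acting through NF-κB and C/EBP factors. Serum amyloid A proteins, serpins of the α1-antichymotrypsin family, lipocalin-2, inter-α-trypsin inhibitor heavy chains and kininogens are among them, and many are also made outside the liver by stromal and glial cells. *Plac8* is best known from myeloid cells, and *Gcg* encodes proglucagon, the precursor of glucagon and of glucagon-like peptides.

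The members lie on separate chromosomes apart from the serum amyloid A cluster and a pair on chromosome 2. In GENCODE vM21 on GRCm38, *Saa3* occupies chr7:46711998-46715700 and *Saa1* chr7:46740497-46742980, both on the minus strand, and *Saa2* lies at chr7:46751790-46754313 on the plus strand, so that *Saa1* and *Saa2* point away from each other. *Lcn2* is at chr2:32384633-32388252 and *Gcg* at chr2:62474530-62483650. *Plac8* is at chr5:100553725-100572245, *Itih3* at chr14:30908572-30923760 and *Kng2* at chr16:22985854-23029482, all on the minus strand. *Serpina3n* is at chr12:104406729-104414329 on the plus strand. All are annotated as protein coding.

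Promoters (250 bases before to 50 after the start site, from RefSeq on GRCm38.p6, available for all 9 genes) were searched on both strands for TTGCNNAA (C/EBP), GGG and TTCC separated by 3 bases (NF-kB) and TTCNNNGAA (STAT). The C/EBP letters were found in the first listed promoter of 5 of the 9 members, and in a further one when the other promoter of *Plac8* was included. They occur in 10.8% of the 32851 promoters of this length that were searched, which do not cover every chromosome. The NF-kB letters were found in 1 member (5.56% of the promoters searched) and the STAT letters in 0 (8.30% of the promoters searched). No search match overlapped another. The 6 first listed promoters with a match are printed because they set *Saa1*, *Saa2*, *Saa3* and *Kng2*, found mainly in fibroblasts, beside *Lcn2* and *Serpina3n*, whose main cell types were others. Capitals mark the matched letters. The windows are chr7:46742931-46743230 (*Saa1*, minus strand), chr7:46751583-46751882 (*Saa2*, plus), chr7:46715627-46715926 (*Saa3*, minus), chr16:23029052-23029351 (*Kng2*, minus), chr2:32387690-32387989 (*Lcn2*, minus) and chr12:104406458-104406757 (*Serpina3n*, plus).
Saa1: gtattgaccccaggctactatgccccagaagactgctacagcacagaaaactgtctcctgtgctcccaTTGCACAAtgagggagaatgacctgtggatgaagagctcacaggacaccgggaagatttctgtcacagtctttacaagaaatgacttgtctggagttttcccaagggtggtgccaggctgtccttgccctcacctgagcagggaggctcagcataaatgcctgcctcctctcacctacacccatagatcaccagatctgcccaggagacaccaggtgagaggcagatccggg
Saa2: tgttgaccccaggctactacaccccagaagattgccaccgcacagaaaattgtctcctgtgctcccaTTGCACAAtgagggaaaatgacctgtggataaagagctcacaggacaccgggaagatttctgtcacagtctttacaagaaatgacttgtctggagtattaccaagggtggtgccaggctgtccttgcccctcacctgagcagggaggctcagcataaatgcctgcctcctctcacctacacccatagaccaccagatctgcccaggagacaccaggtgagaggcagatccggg
Saa3: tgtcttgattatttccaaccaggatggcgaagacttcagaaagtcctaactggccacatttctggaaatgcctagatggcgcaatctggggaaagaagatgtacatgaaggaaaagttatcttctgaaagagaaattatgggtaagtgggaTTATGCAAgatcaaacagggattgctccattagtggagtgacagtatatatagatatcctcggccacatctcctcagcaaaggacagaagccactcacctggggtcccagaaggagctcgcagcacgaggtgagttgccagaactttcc
Kng2: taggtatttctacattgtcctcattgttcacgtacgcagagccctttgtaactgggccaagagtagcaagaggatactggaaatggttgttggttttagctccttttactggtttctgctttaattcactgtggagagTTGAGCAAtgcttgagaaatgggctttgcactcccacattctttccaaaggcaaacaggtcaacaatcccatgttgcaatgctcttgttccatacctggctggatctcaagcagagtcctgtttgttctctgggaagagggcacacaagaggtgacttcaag
Lcn2: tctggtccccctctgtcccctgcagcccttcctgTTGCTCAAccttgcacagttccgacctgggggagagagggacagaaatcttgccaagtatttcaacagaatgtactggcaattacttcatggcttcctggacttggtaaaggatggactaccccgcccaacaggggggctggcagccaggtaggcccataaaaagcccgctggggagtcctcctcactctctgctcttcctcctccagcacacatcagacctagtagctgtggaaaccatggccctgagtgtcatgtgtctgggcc
Serpina3n: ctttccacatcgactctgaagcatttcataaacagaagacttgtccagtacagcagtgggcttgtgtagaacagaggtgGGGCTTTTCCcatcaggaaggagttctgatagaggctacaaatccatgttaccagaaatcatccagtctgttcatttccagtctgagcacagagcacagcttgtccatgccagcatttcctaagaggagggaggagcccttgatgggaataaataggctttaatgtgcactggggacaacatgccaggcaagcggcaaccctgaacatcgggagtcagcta

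The match lies at bases -182 to -175 from the start site in *Saa1* and -183 to -176 in *Saa2*, with the same letters TTGCACAA. In a global alignment these 2 promoters shared 95.3% of columns, whereas the promoter of *Saa3* shared 55.9% with that of *Saa1*, close to the 52.6% between *Saa1* and the unrelated *Kng2*. The match of *Saa3* lies at -99 to -92, that of *Kng2* at -112 to -105, that of *Lcn2* at -216 to -209 and the NF-kB match of *Serpina3n* at -171 to -162. A match is a description of letters only. The transcripts of *Saa1* and *Saa2* are also alike: 31.7% of the 50-base windows of the longest *Saa1* transcript occur in *Saa2* transcripts, and 134 of its last 451 windows do. How the authors' counting divided such reads is not given in the sources used here, so the separate levels of *Saa1* and *Saa2* are uncertain to that extent, while *Saa3* shared 0 windows with *Saa2*.

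Of 6975 barcodes, 6095 passed the limits on UMIs, genes and mitochondrial share, with a median of 3763 UMIs and 2775 to 4845 per library. A cell was given a type when at least 3 markers of that type were detected with a lead of 2 markers over every other type. This named 5072 cells, among them 1284 fibroblast-like, 1335 satellite glial-like, 1000 macrophage-like, 448 endothelial-like, 239 myelinating Schwann-like, 111 neutrophil-like, 77 monocyte-like and 58 neuron-like cells. No member was used as a marker. Every named type with 10 or more cells had its own markers among its leading genes and none of another type. This follows in part from the gate, which used the same markers, and is no independent evidence for the names. The 3 cells that passed the gate for perineurial cells stayed unnamed because fibroblast genes led them. The libraries shared 20 barcode sequences. Control replicate 1 was the shallowest library and held 68 satellite glial-like cells, against 421, 595 and 251 in control replicate 2, injury replicate 1 and injury replicate 2. Levels are UMIs summed over the cells of a type in a library and divided by all UMIs of those cells, as counts per 1e+06 (CPM).

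The members fell into 4 patterns of cell type, shown in the heat map of levels. *Saa1*, *Saa2*, *Kng2* and *Gcg* were almost entirely fibroblast genes, with 97.7%, 98.9%, 98.8% and 97.7% of their UMIs in fibroblast-like cells. Over all libraries *Saa3* and *Itih3* were mainly so, with 88.3% and 74.2%. All these shares pool control and injury libraries, and the members were picked for a rise after injury. In the control libraries alone *Itih3* was at 1.73 and 1.31 CPM in fibroblast-like cells. It was at 5.18 and 3.48 CPM in satellite glial-like control cells, on few UMIs in both types. Within the cell limits, which remove most neurons, *Serpina3n* was led by satellite glial-like cells (61.2% of UMIs), followed by fibroblast-like cells (20.02%). Without those limits neuron-like barcodes held 669 *Serpina3n* UMIs and satellite glial-like barcodes 665. *Lcn2* and *Plac8* were led by blood cells, with 91.6% of *Lcn2* UMIs in neutrophil-like cells and 35.6% of *Plac8* UMIs in monocyte-like cells. The total UMIs in filtered cells ranged from 120 for *Itih3* to 4787 for *Plac8*.

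**Figure D1:**
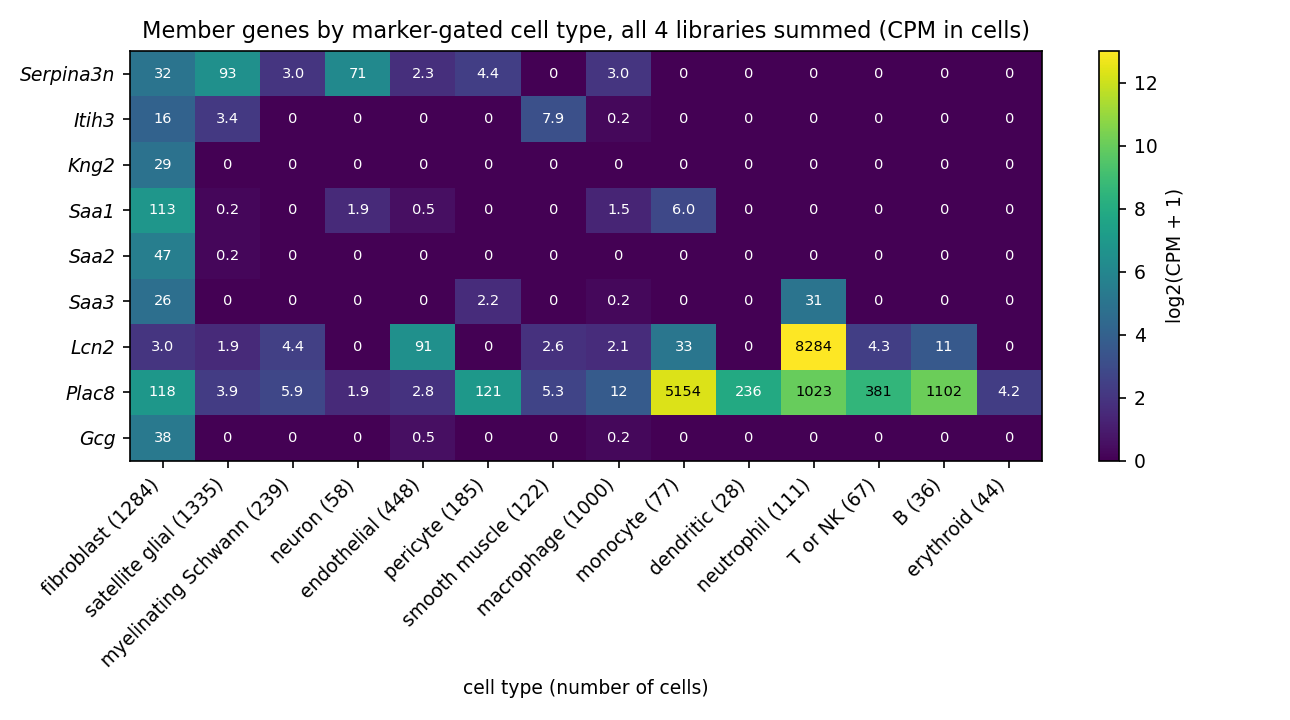
Level of each member (rows) in each marker-gated cell type (columns, number of cells in brackets), as CPM over the 4 libraries summed (numbers) and log2(CPM + 1) (colour). *Lcn2* in neutrophil-like cells (8284 CPM) and *Plac8* in monocyte-like cells (5154 CPM) stand far above all other entries, and *Kng2* is above 0 in fibroblast-like cells alone among the named types shown.

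*Saa1* and *Saa2* encode the serum amyloid A proteins that circulate on high-density lipoprotein. Fibroblast-like cells carried *Saa1* at 22.4 CPM in control replicate 1 and 24.3 CPM in control replicate 2, against 203 CPM in injury replicate 1 and 184 CPM in injury replicate 2. Both injury libraries lay far above both control libraries, and the mean went from 23.4 ± 1.33 to 194 ± 13.6 CPM (SD, n = 2), a ratio of 8.29. *Saa2* moved in parallel at a lower level, with 9.49 and 10.5 CPM in the control and 87.0 and 74.0 CPM in the injury libraries, a ratio of 8.04. The share of fibroblast-like cells with a *Saa1* UMI was 6.62% and 4.28% in control and 21.5% and 23.3% after injury. After thinning every cell to 1000 UMIs it was 2.79% and 2.14% against 9.71% and 8.13%. In control replicate 2 a single cell gave 21 of the 37 *Saa1* UMIs. Satellite glial-like cells, at a median of 3998 UMIs against 4087 in fibroblast-like cells, had 1 *Saa1* UMI in 1335 cells (0.0749%, and 0% after thinning).

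*Saa3* encodes a serum amyloid A form made mainly outside the liver. It behaved unlike its neighbours: in the order control replicate 1, control replicate 2, injury replicate 1, injury replicate 2, fibroblast-like cells held 0, 44, 85 and 15 UMIs, or 0, 28.9, 55.6 and 10.7 CPM. The groups overlapped, and the UMIs lay in 0, 3, 4 and 2 cells, with 30, 41 and 10 of them in the top cell of the last 3 libraries. The ratio of means of 2.29 therefore rested on 9 cells, and the log2 ratio of 1.20 became -0.44 without injury replicate 1, 1.94 without injury replicate 2 and 0.20 without control replicate 1. Neutrophil-like cells held 16 *Saa3* UMIs in 3 cells, 11 of them in control replicate 2 and 5 in injury replicate 2.

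*Kng2* encodes a kininogen, the precursor of bradykinin, and *Itih3* a heavy chain that binds hyaluronan in the matrix. *Kng2* was at 18.1 and 9.202 CPM in control and 45.8 and 42.7 CPM in injury fibroblast-like cells, a ratio of 3.24 with no overlap between groups. Every other type with a name was at 0 for *Kng2*, including 1335 satellite glial-like cells, where 3 UMIs would have been 0.514 CPM. *Itih3* was at 1.73 and 1.31 CPM in control and 37.3 and 19.9 CPM after injury, so both injury libraries lay above the control libraries. Its ratio of 18.8 rested on 4 UMIs in the control libraries against 85 after injury. In satellite glial-like cells *Itih3* had 20 UMIs, at 5.18 and 3.48 CPM in control and 3.07 and 3.70 CPM after injury, and the groups overlapped.

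*Gcg*, a gene whose usual sites are pancreatic α cells, intestinal L cells and a brainstem nucleus, was found in fibroblast-like cells. It was at 11.22 and 3.94 CPM in the control and 75.2 and 54.8 CPM in the injury libraries, a ratio of 8.57 with no overlap. Its log2 ratio of 3.10 was 4.04 without control replicate 1. A *Gcg* UMI was found in 3.83% and 1.60% of control and 17.4% and 12.4% of injury fibroblast-like cells, and in 0 of the satellite glial-like cells. Liver markers were checked because most members are liver genes. In all filtered cells 5 to 7 of the 10 listed were at 0, and their summed level was 6.29 to 17.0 CPM per library. The member *Kng2* was at 2.43 to 10.3 CPM in the same cells, so the liver sums were not low beside it. In fibroblast-like cells the liver markers summed to 18.99 and 53.9 CPM in control and 56.9 and 50.5 CPM after injury. Their part in the result was not tested.

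*Plac8* encodes a small cysteine-rich protein. In fibroblast-like cells *Plac8* was at 44.0 and 44.0 CPM in the control and 188 and 183 CPM in the injury libraries, a ratio of 4.21 with no overlap. A single cell gave 47 of the 287 UMIs in injury replicate 1 and 73 of the 257 in injury replicate 2. In the control libraries the top cell gave 11 of 51 and 10 of 67 UMIs. Monocyte-like cells had 5556 and 4085 CPM in the control libraries, the latter from 6 cells, and 5400 and 4047 CPM in the injury libraries, so the groups overlapped. Monocyte-like cells gave 1705 *Plac8* against 860 *Ly6c2* UMIs, whereas fibroblast-like cells gave 662 *Plac8* against 25 *Ly6c2* UMIs. B-like cells gave 96 *Plac8* and 0 *Ly6c2* UMIs, and the part of RNA from other cells in the fibroblast level was not tested. A *Plac8* UMI was found in 15.0% of fibroblast-like cells (6.62% after thinning) and in 0.899% of satellite glial-like cells (0.225% after thinning). Pericyte-like cells reached 64.0 CPM in control replicate 1 and 143 CPM in injury replicate 1. The other libraries held 10 and 5 pericyte-like cells.

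*Lcn2*, the iron-siderophore binding lipocalin-2 of neutrophil granules and inflamed epithelia, went against the rule by which it was chosen. In fibroblast-like cells it was at 6.04 and 1.31 CPM in the control and 0.654 and 4.98 CPM in the injury libraries, and in satellite glial-like cells at 5.18 and 0.498 CPM against 2.19 and 2.96 CPM. The groups overlapped in both types, with 17 and 11 UMIs in all. The share of cells with a *Lcn2* UMI was 1.17% in fibroblast-like and 0.824% in satellite glial-like cells, near the 1.00% of macrophage-like cells, and no rise was detectable at this depth. After thinning the shares were 0.234%, 0.375% and 0.4004%.

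In fibroblast-like cells both injury libraries lay above both control libraries for 7 of the 8 members that passed the filter on low counts. This was so for 9% of all 9207 genes tested, and nothing is read from the comparison, because the members were selected on it.

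**Figure D2:**
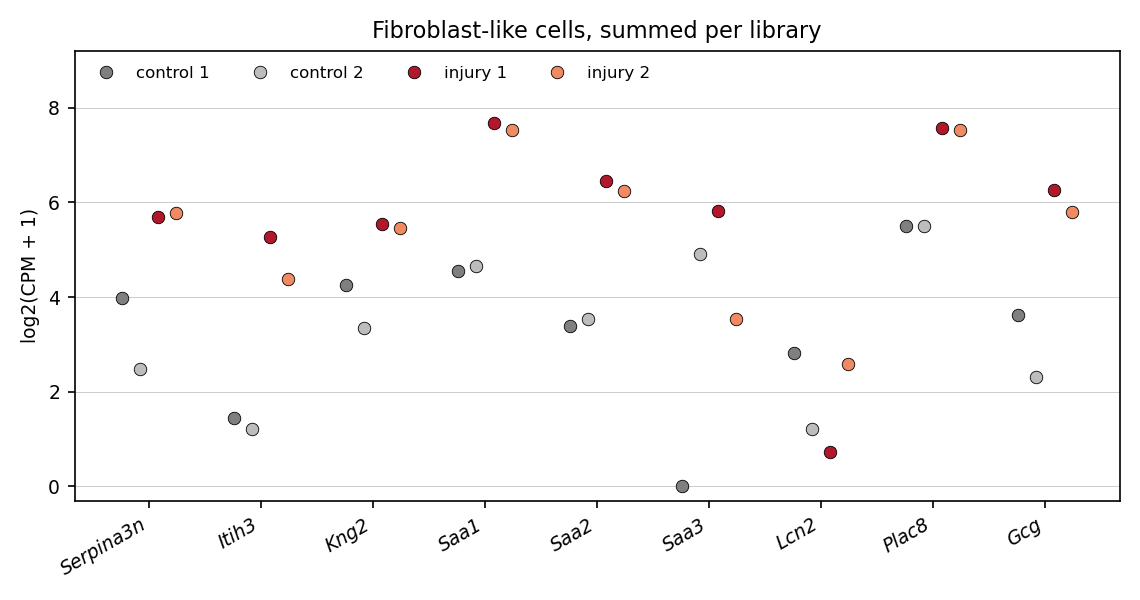
Level of each member in fibroblast-like cells, as log2(CPM + 1), with 1 point per library (grey, control; red and orange, injury). Both injury libraries lie above both control libraries for 7 members, and *Saa3* and *Lcn2* overlap. This separation was found for 9% of all 9207 genes tested, and the members were selected on the comparison.

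*Serpina3n* encodes a secreted inhibitor of serine proteases, known from reactive glia. Satellite glial-like cells carried it at 15.5 CPM in control replicate 1 and 14.4 CPM in control replicate 2, against 165 CPM in injury replicate 1 and 97.7 CPM in injury replicate 2. The mean went from 15.0 ± 0.773 to 131 ± 47.6 CPM (SD, n = 2), a ratio of 8.77, and the groups did not overlap. The share of all genes with such a separation was not counted in these cells. Nothing is read from it, because the gene was selected on this contrast. The value of control replicate 1 rested on 3 UMIs in 2 of 68 cells. The share of satellite glial-like cells with a UMI was 2.94% and 5.94% in control and 27.1% and 29.1% after injury, and after thinning 1.47% and 1.90% against 9.75% and 6.37%. In fibroblast-like cells *Serpina3n* was at 14.7 and 4.60 CPM in control and 50.4 and 54.1 CPM after injury, a ratio of 5.42. The log2 ratio of 2.44 was 3.50 without control replicate 1 and 1.83 without control replicate 2. The 239 myelinating Schwann-like cells held 2 *Serpina3n* UMIs, both in injury replicate 2, and endothelial-like and macrophage-like cells stayed at or below 4.56 CPM in every library.

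Neurons were a further source of *Serpina3n*. Most neuron barcodes exceed the upper limits on UMIs and genes, and without any cell limits the same gate found 295 neuron-like barcodes with a median of 20203 UMIs, in place of 58. Among these *Serpina3n* was at 99.0 and 79.4 CPM in the control and 107 and 90.9 CPM in the injury libraries, and the groups overlapped. The difference was a log2 fold change of 0.28 (SE 0.25, adjusted p = 0.753, edgeR's quasi-likelihood test over 9755 genes), in a fit that called 19 genes higher, 0.195% of those tested. *Atf3*, a transcription factor of injured sensory neurons, was at 108 and 77.7 CPM against 910 and 305 CPM in the same barcodes (log2 fold change 2.86, SE 0.52, adjusted p = 0.105). The 10 satellite glial markers summed to 425, 693, 348 and 484 CPM in these neuron-like barcodes, against 11790 to 19261 CPM in satellite glial-like cells. The contrast of the neuron and glial changes was not tested, because the glial change chose the gene.

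**Figure D3:**
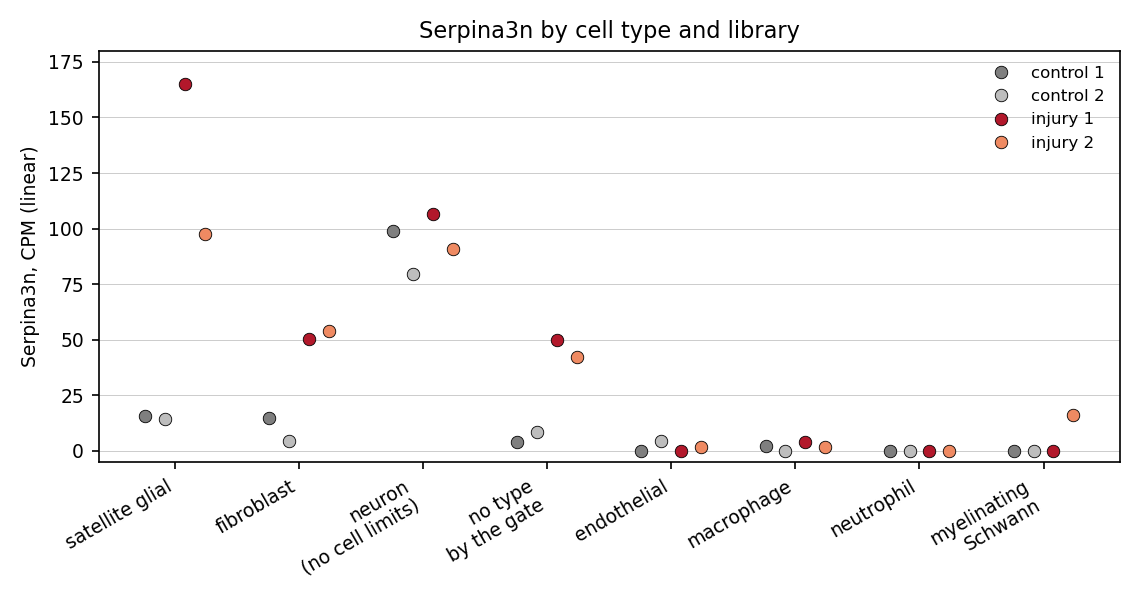
*Serpina3n* level in CPM (linear axis) by cell type, with 1 point per library (grey, control; red and orange, injury). Injury libraries lie above control libraries in satellite glial-like, fibroblast-like and untyped cells, and overlap them in neuron-like barcodes counted without cell limits. In fibroblast-like cells this order was found for 9% of 9207 genes, and it was not counted over all genes in the other types. The gene was selected on the fibroblast and glial contrasts.

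Across all genes, edgeR's quasi-likelihood test of injury against control called 0 of 9207 genes higher in fibroblast-like cells (0%) and 0 of 8915 in satellite glial-like cells (0%) where a call needed an adjusted p below 0.05 together with a log2 difference of at least 2. An unadjusted p under 0.05 was found for 188 and 105 genes. DESeq2 called 7 and 1 genes higher. These fits had no block for the replicate number, and the counts with that block are given with the other settings below. In myelinating Schwann-like cells edgeR called 0 of 2568 genes (0%), with 53 at an unadjusted p under 0.05. As the members were selected on these contrasts, their values there stay a description. With 2 libraries per group the precision is limited, and each p-value of injury against control measures the spread between these pooled libraries. Where a fit below has the library as a block, its p-values measure the spread left after differences between libraries are removed.

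In cell types that did not choose the members, the change after injury could be tested for *Lcn2* and *Plac8*. Neutrophil-like cells carried *Lcn2* at 11719 and 7825 CPM in control and 9513 and 5155 CPM after injury, a log2 fold change of -0.51 (SE 0.51, adjusted p = 0.999, edgeR). In endothelial-like cells *Lcn2* was at 85.5 and 79.8 CPM in control and 128 and 80.8 CPM after injury, a log2 fold change of 0.43 (SE 0.33, adjusted p = 1.00, edgeR). *Plac8* in neutrophil-like cells was at 832 and 997 CPM against 1543 and 981 CPM, a log2 fold change of 0.38 (SE 0.54, adjusted p = 0.999, edgeR), which turned to -0.08 without injury replicate 1. None passed the threshold, against 0% of 1316 genes in neutrophil-like and 0% of 6097 genes in endothelial-like cells. DESeq2 called 0 genes in both types. An unadjusted p under 0.05 was found for 3 and 106 genes. No member was tested in macrophage-like cells, where all were too low for the filter.

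Where the members were expressed in naïve ganglia was asked with the control libraries alone, in the cell types that had no part in the choice of members. Neutrophil-like and endothelial-like cells were each set against the other 7 types that had 10 cells in both control libraries. The contrast used the mean of the log2 levels of those types, with the library as a block. Among those types were fibroblast-like, satellite glial-like and myelinating Schwann-like cells, whose control values were part of what chose the members. The differences and p-values below are therefore not free of that choice. *Lcn2* was higher in neutrophil-like cells by 12.2 on the log2 scale (SE 0.28, adjusted p = 1.63e-16, edgeR) and in endothelial-like cells by 3.44 (SE 0.45, adjusted p = 8.74e-06, edgeR). Each type weighs alike in that log2 mean. Endothelial-like cells, at 85.5 and 79.8 CPM, lay far below neutrophil-like cells, at 11719 and 7825 CPM. The endothelial difference is therefore not a level above every other type. Pericyte-like cells had 0 *Lcn2* UMIs in both control libraries. The sizes of both *Lcn2* differences thus depend on how the fit handles a sum of 0, and their SE does not cover that. *Plac8* passed the filter on low counts only through neutrophil-like cells, at 832 and 997 CPM in the control libraries. Its differences in these fits are therefore given as a description, without a p-value. *Plac8* was higher in neutrophil-like cells by 6.96 on the log2 scale, and by 6.76 with no filter. These fits called 8.92% of 5559 genes higher in neutrophil-like and 10.9% in endothelial-like cells. *Plac8* was lower in endothelial-like cells by a log2 difference of -3.34, and of -3.32 with no filter. The endothelial fit called 2% of genes lower. The other 7 members did not pass the filter on low counts, which is set by the smallest sums. Fibroblast-like and satellite glial-like cells are given without a test here, because their control values were part of what chose the members.

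Fibroblast-like cells were not uniform for these genes. A split by the adventitial genes *Pi16* and *Dpp4* separated them little: cells with either gene made up 15.3 to 20.1% of fibroblast-like cells per library and held 9.005% (*Gcg*) to 28.5% (*Saa3*) of the members' fibroblast UMIs. After the values had been seen, the cells were also divided by which of the study's own marker lists had more genes detected, 9 connective tissue or 10 mesenchymal genes. These lists were made by the study from these samples and are no independent evidence. The connective tissue list led in 819 cells (63.8%), the mesenchymal list in 413 (32.2%) and neither in 52. The first group made up 79.4% and 47.1% of fibroblast-like cells in control, against 74.4% and 57.2% after injury. The median depth of the groups was alike, 3540 to 4628 UMIs in the first and 4035 to 4572 in the second.

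Cells led by connective tissue markers held 99.5% of the *Gcg*, 99.2% of the *Saa2*, 98.9% of the *Itih3*, 98.6% of the *Saa1* and 96.6% of the *Serpina3n* UMIs of fibroblast-like cells, and all 144 of *Saa3*. In these cells *Saa1* was at 27.1 and 52.7 CPM in control and 270 and 309 CPM after injury. *Serpina3n* was at 18.1 and 10.2 CPM against 63.5 and 91.7 CPM, and *Gcg* at 13.5 and 8.78 CPM against 99.98 and 94.1 CPM. In the cells led by mesenchymal markers, by contrast, *Saa1* had 3 UMIs in control and 1 after injury, *Gcg* 1 and 0, *Itih3* 1 and 0 and *Serpina3n* 1 and 3.

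*Kng2* and *Plac8* were divided differently. *Kng2* in the control libraries lay mainly in cells led by mesenchymal markers, with 23 UMIs there against 6 in cells led by connective tissue markers. After injury it was 33 against 91. Its level in cells led by mesenchymal markers was 48.7 and 14.4 CPM in control and 55.0 and 28.8 CPM after injury, with overlap, and in cells led by connective tissue markers 5.64 and 1.46 CPM against 42.6 and 51.4 CPM. *Plac8* went from 50.8 and 58.5 CPM to 238 and 271 CPM in cells led by connective tissue markers. In the cells led by mesenchymal markers it was at 8.11 and 28.9 CPM in control and 39.7 and 61.3 CPM after injury, based on 24 and 45 UMIs. The difference between the 2 kinds of cell was not tested.

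**Figure D4:**
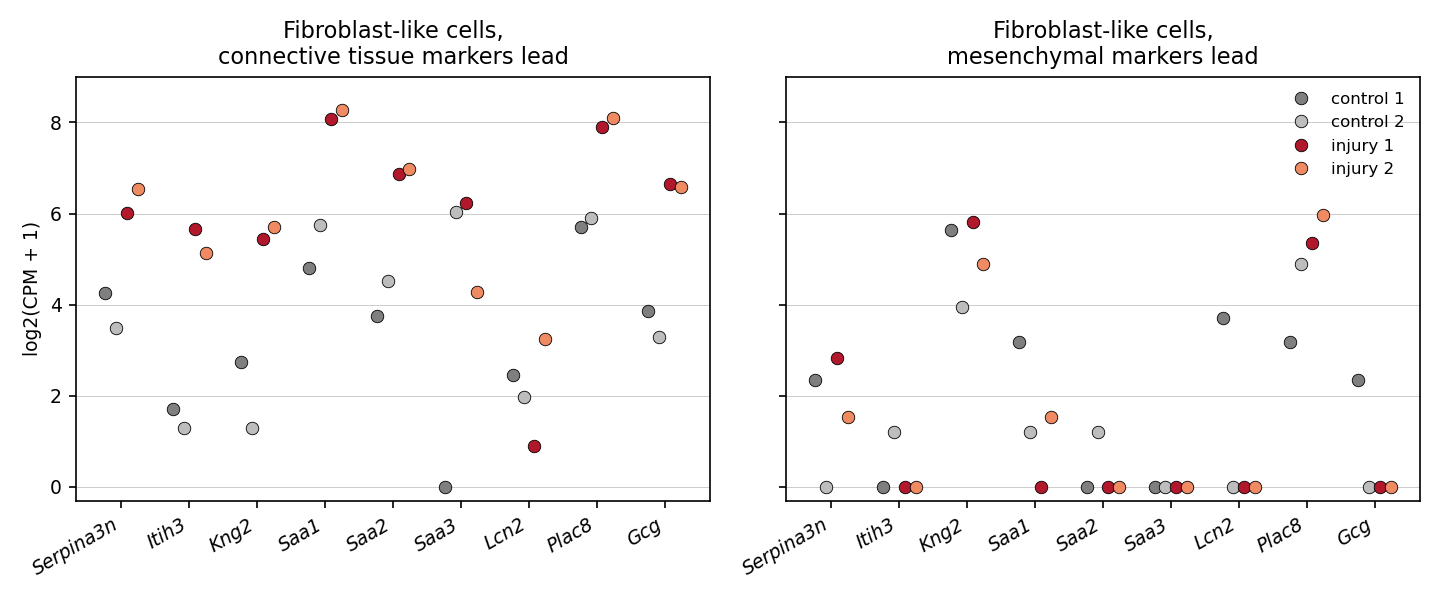
Level of each member, as log2(CPM + 1) with 1 point per library, in fibroblast-like cells led by connective tissue markers (left) and by mesenchymal markers (right). In the right panel only *Kng2* and *Plac8* lie above 3 on this scale in more than 1 library.

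Within cells led by connective tissue markers, members were often found in the same cell after injury. Of 404 control cells, 71.5% had none of the 7 members *Serpina3n*, *Saa1*, *Saa2*, *Itih3*, *Kng2*, *Plac8* and *Gcg*, and 0.743% had 3. Of 415 injury cells, 32.3% had none, 13.7% had 3 and 7.23% had 4. These 7 are the members whose injury libraries both lay above both control libraries in fibroblast-like cells. The difference between the groups therefore follows from the choice of genes, and nothing is read from it. The cells were pooled over the libraries of a condition and are not replicates. Of the 77 injury cells with *Saa2*, 72.7% also had *Saa1*, against 33.0% of all 415 cells. Of the 94 cells with *Gcg*, 51.1% had *Saa1* and 38.3% had *Saa2*, against 18.6% of all cells for *Saa2*. Cells with a member were deeper, with a median of 5409 UMIs where *Saa2* was found and 4270 where it was not. *Saa1* and *Saa2* share sequence, and the part of depth in these shares was not tested.

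**Figure D5:**
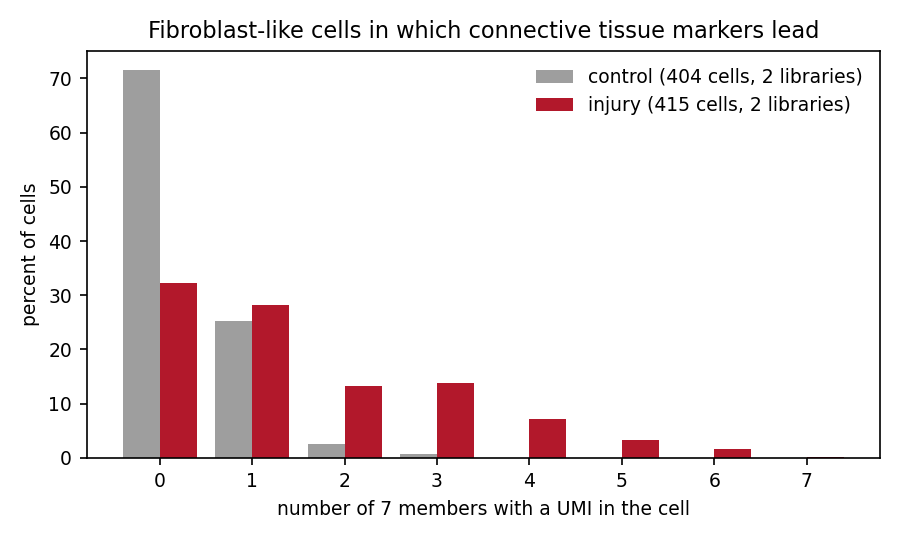
Percent of fibroblast-like cells led by connective tissue markers in which 0 to 7 of 7 members had a UMI, in control (404 cells, grey) and injury libraries (415 cells, red). Cells with none made up 71.5% in control and 32.3% after injury, and cells with 4 or more were found after injury alone. The 7 members were picked for a rise after injury, so this difference follows from their choice.

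Over 43 sums of library and cell type, the gene most like *Saa1*, *Saa2*, *Kng2* or *Gcg* in level was another member. This was not so for *Itih3* and *Saa3*. The members were picked for a rise in fibroblasts or glia, whose injury sums are among the 43. Likeness between members therefore follows in part from that choice. *Saa2* was closest to *Kng2* (Pearson r = 0.987), *Gcg* (0.976) and *Gm973* (0.949), and *Saa1* to *Saa2* (0.919), *Kng2* (0.914) and *A2m* (0.901). *A2m* is on the acute phase list read below, with a log2 fold change of 0.06 (SE 0.49) after injury in fibroblast-like cells. *Gcg* was closest to *Saa2* and *Kng2* (0.974) and then to *Ttr* (0.933), the transthyretin gene, which is on the list of liver markers above. *Lcn2* followed *Hdc* (0.880), *S100a8* (0.846) and *Lrg1* (0.842), and *Plac8* followed *Napsa* (0.822), *Impa2* (0.817) and *Slpi* (0.802). *Serpina3n* was nearest to *Soga3* (0.834), *Slc1a4* (0.830) and *Edil3* (0.808), *Itih3* to *Loxl1* (0.803), *Gm11627* (0.791) and *Pygo1* (0.777), and *Saa3* to *Slc6a13* (0.715), *Dmkn* (0.668) and *Pycr1* (0.642). These are descriptions over 10781 genes. The sums share libraries, and most of the likeness is set by the type in which a gene is high.

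The other acute phase genes were read from a list of 49, of which 48 had a row. In fibroblast-like cells 20 were tested and 0 were called in either direction (edgeR). Their median log2 fold change was 0.23, against -0.01 over all 9207 genes. The 3 with the largest change were *Cfb*, complement factor B (-1.86, SE 0.76, adjusted p = 1.00), *C3*, the central complement component (1.55, SE 0.45, adjusted p = 1.00), and *Hp*, haptoglobin (1.45, SE 0.49, adjusted p = 1.00). *Ptx3*, a long pentraxin, was at 79.4 and 51.9 CPM in control and 191 and 133 CPM after injury, and *Il1rn*, the interleukin-1 receptor antagonist, at 15.5 and 20.4 CPM against 47.7 and 40.5 CPM. These last genes were singled out after their values were seen. Both injury libraries lay above both control libraries for them, as for 9% of all 9207 genes tested, and nothing is read from it. In satellite glial-like cells 11 list genes were tested, 0 were called and the median was 0.05. The largest changes were those of *C4b*, a complement component (15.5 and 12.9 CPM against 82.8 and 42.2 CPM, log2 fold change 2.27, SE 0.43, adjusted p = 1.00, edgeR), *Cd14*, a receptor for bacterial endotoxin (1.55, SE 0.54), and *Tnfaip6*, which transfers heavy chains to hyaluronan (0.40, SE 0.41). *Cd14* was at 5.18 and 4.48 CPM in control and 15.8 and 10.4 CPM after injury there. Macrophage-like cells had 620 to 2378 CPM of *Cd14* per library, and the part of their RNA in the glial values was not tested.

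Of 31 genes of acute phase signalling with a row, 23 were tested in fibroblast-like cells, with 0 called and a median of 0.22. *Il1r1*, the interleukin-1 receptor, was at 12.9 and 11.17 CPM in control and 44.5 and 24.2 CPM after injury (log2 fold change 1.60, SE 0.43, adjusted p = 1.00, edgeR). *Il6* was at 22.4 and 7.89 CPM against 46.4 and 22.1 CPM (1.30, SE 0.60), and *Osmr*, the oncostatin M receptor, at 20.7 and 21.0 CPM against 47.7 and 32.0 CPM (1.01, SE 0.33). *Stat3* and *Cebpb*, the transcription factors of the response, changed by 0.36 (SE 0.20) and -0.08 (SE 0.30). In satellite glial-like cells 16 were tested with 0 called, a median of 0.01 and the largest changes in *Il1b* (0.92, SE 0.91), *Relb* (-0.82, SE 0.32) and *Stat3* (0.60, SE 0.28). *Il1b* was at 2.99 to 15.5 CPM per library there, against 209 to 1575 CPM in macrophage-like cells. The part of RNA from such cells was not tested.

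Among 24 other serpins, 9 were tested in fibroblast-like and 7 in satellite glial-like cells, with 0 called in both. The medians were 0.01 and 0.43. Among the larger changes in fibroblast-like cells were those of *Serpine2*, protease nexin-1 (1.03, SE 0.24), and *Serpind1*, heparin cofactor II (0.86, SE 0.49). *Serpine2* was at 533 and 639 CPM in control and 1182 and 1101 CPM after injury in fibroblast-like cells, and at 1392 and 1496 CPM against 1315 and 1469 CPM in satellite glial-like cells. In the latter, *Serpinb1a*, an inhibitor of neutrophil proteases (2.05, SE 0.54), *Serping1*, the C1 inhibitor (0.75, SE 0.24), and *Serpinh1*, a collagen chaperone (0.45, SE 0.25), led. The interaction of cell type and injury, fitted with the library as a block, was past an adjusted p of 0.05 for 0 of 63 list genes (edgeR; 9 at an unadjusted p under 0.05, and 1 of 10238 genes overall at the adjusted threshold), so the 2 cell types were not shown to differ for any of them.

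Genes tied to the members as proteases, receptors or binding partners (35 with a row) were tested for 10 in fibroblast-like cells, with 0 called and a median of 0.11. The largest changes there were in *Prtn3*, proteinase 3 of neutrophils (1.56, SE 0.88), *Ace*, which degrades bradykinin (-1.13, SE 0.59), and *Ctsb*, cathepsin B (0.55, SE 0.34). *Prtn3* is a neutrophil gene, and 9 neutrophil markers summed in fibroblast-like cells to 141 and 79.5 CPM in the control libraries and 30.7 and 185 CPM in the injury libraries. The part of such RNA in the result was not tested. In satellite glial-like cells 5 were tested, 0 were called and the median was 0.08, led by *Ctsb* (0.43, SE 0.24), *Scarb1* (-0.32, SE 0.25) and *Ctsl* (0.22, SE 0.35). In endothelial-like, macrophage-like and neutrophil-like cells, edgeR likewise called 0 genes of these lists.

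Other cells and RNA quality were measured beside the members. The 10 satellite glial markers in fibroblast-like cells summed to 50.1 and 300 CPM in the control libraries and 128 and 292 CPM in the injury libraries, with 4, 2, 2 and 0 of them at 0, and followed the replicate number rather than the condition. Monocyte markers there summed to 191 to 281 CPM with overlap between the groups. The 12 genes of the dissociation response, such as *Fos* and *Jun*, summed to 22937, 7747, 13813 and 8136 CPM in fibroblast-like and 13685, 3090, 6860 and 3721 CPM in satellite glial-like cells, and were highest in the libraries without a number in their label. The part of these values in the members' change was not tested.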

How the data were processed

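Cells dissociated from dorsal root ganglia (L4 per the labels, L4 and L5 per the study) were profiled on a droplet platform in 4 libraries, 2 per condition. The authors deposited raw UMI counts per gene and barcode, made with Cell Ranger on mm10 per the labels; the later filters of the study (Partek) were not applied to these files. Cells with 600 to 15000 UMIs, 500 to 4000 genes and under 10% mitochondrial UMIs were kept. The study states the first limit in reads; applied here to UMIs, the limits left 6095 of 6975 barcodes, fewer cells than the study states. Types were gated on 137 marker genes, of which 136 had a row, without clustering, and cells with no type were left out of the sums; no doublet caller was run. Raw counts were summed per library and type and tested with edgeR 4.0.16 (quasi-likelihood, TMM, filterByExpr, Benjamini-Hochberg adjustment over all genes tested), in types with at least 10 cells in every library; SE is the log2 fold change over the root of F. DESeq2 1.42.0 was the alternative. Genes were called at an adjusted p of 0.05 and a log2 fold change of 2. The scripts were tested on simulated data.

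Members and gene lists were chosen with earlier results of these data known. Named in the text are all 9 members, the called genes of each list or else the 3 with the largest absolute change, and the genes most like a member (Pearson r of log2(CPM + 1), genes with at least 100 UMIs). Some genes were named outside this rule, among them *Ptx3*, *Il1rn*, *Stat3* and *Cebpb* in fibroblast-like cells. A result that this rule would name is not reported here. Shares of cells are also given after thinning to 1000 UMIs, and counts of UMIs and floors (3 UMIs) cover counting error only. The labels number 1 library of each condition as 2; the unnumbered ones are called replicate 1. Numbers in accession order only name a library, and the study describes the libraries of a condition as biological replicates, each made from pooled mice.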

Additional observations from a re-analysis of the deposited data

Results flagged for a closer look

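*Plac8* was flagged because the order of its levels differed between 2 cell types. Both injury libraries were above both control libraries in fibroblast-like cells. In satellite glial-like cells they were below, at 5.18 and 5.47 CPM in control against 2.19 and 4.44 CPM after injury (log2 ratio -0.68). The glial values rested on 12 UMIs in control and 11 after injury. Control replicate 1 had 1 UMI. Control replicate 2 had 11 UMIs in 2 cells, and a single cell gave 10 of them. The difference was not tested, the glial counts are few, and no fall in satellite glial-like cells is read from them.

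Cells that the gate gave no type also held *Serpina3n*, at 3.93 and 8.63 CPM in the control and 49.9 and 42.1 CPM in the injury libraries, a log2 ratio of 2.87 on 9 and 94 UMIs; these 1023 cells are in no comparison above.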

How the results depend on the processing

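The count of genes called higher after injury was 0 in every type fitted within the cell limits and moved with the settings. DESeq2 called 7 in fibroblast-like, 1 in satellite glial-like and 6 in macrophage-like cells. With no filter on low counts it was 3 in fibroblast-like, 12 in satellite glial-like (1 an acute phase gene), 4 in Schwann-like, 1 in endothelial-like and 59 in macrophage-like cells, and 2 list genes differed between fibroblast-like and satellite glial-like cells. The stricter gate gave 2 in fibroblast-like cells. The labels number 1 library of each condition as 2 and do not say whether same-numbered libraries were made together. With the replicate number as a block, the counts were 7, 9, 3 and 44 in fibroblast-like, satellite glial-like, Schwann-like and macrophage-like cells. Same-numbered libraries deviated together with r = 0.219 to 0.639.

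Leaving out 1 library gave 0 to 47 in fibroblast-like cells (27 without control replicate 1, 47 without control replicate 2), 0 to 8 in satellite glial-like (6 and 8 without injury replicates 1 and 2), 0 to 13 in Schwann-like, 2 to 17 in endothelial-like, 20 to 106 in macrophage-like and 0 to 16 in neutrophil-like cells, and 0 to 1 acute phase genes in the first 2 types; a group left with 1 library is assumed to vary like the other. The cause was not tested. In the control libraries, no filter raised the calls from 578, 511, 606 and 496 to 1477, 1235, 1242 and 816 for fibroblast-like, satellite glial-like, endothelial-like and neutrophil-like cells, with more genes tested.

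Of the members, *Plac8* in neutrophil-like cells ran from -0.080 to 0.71 and *Saa3* in fibroblast-like cells from -0.44 to 1.94 with 1 library left out, both lowest without injury replicate 1. *Lcn2* in fibroblast-like cells had a log2 ratio of -0.39 that turned to 1.02 for the thinned share of cells, 1.10 without control replicate 1, 0.44 without injury replicate 1 (range with 1 library left out, -2.49 to 1.10) and 0.34 in cells led by connective tissue markers. The other 7 ran from 1.29 for *Kng2* to 4.62 for *Itih3*, with *Gcg* at 4.04 and *Serpina3n* at 3.50 without control replicate 1. *Serpina3n* in satellite glial-like cells ran from 2.26 to 3.46. In all of these cases both injury libraries lay above both control libraries. Leaving out 1 library could therefore not bring the log2 ratio below 0, and nothing is read from its sign. The split of fibroblast-like cells and the left-out libraries for member levels were chosen after seeing the data. Few UMIs limit *Itih3*, *Saa3* and *Lcn2*, and 68 satellite glial-like cells limit control replicate 1.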

Other observations

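Among the 1023 cells without a type, *Plac8* had 1519 UMIs, 31.7% of its total, at 422 and 459 CPM in the control and 151 and 1020 CPM in the injury libraries. B-like cells (36 cells) were at 1102.5 CPM for *Plac8* over all libraries, T or NK-like cells (67) at 381 CPM and dendritic-like cells (28) at 236 CPM, with too few cells in most libraries for a comparison.

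*Lcn2* was found in 95.5% of neutrophil-like cells (91.9% after thinning) and in 25.0% of endothelial-like cells (6.25% after thinning). In endothelial-like cells its UMIs numbered 197 beside 113 of *S100a8*, and in neutrophil-like cells 4252 beside 85642 of *S100a8*. The part of RNA from neutrophils in the endothelial level was not tested.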
